A study of Mus musculus with 6 samples.

Results

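Microglia of deposited cluster 6 are the cells that the authors' metadata give the cell type Microglia and the cluster number 6. They number 235 of the 2721 microglia and of the 3005 cells in the 6 libraries. Both conditions come from the deposited metadata, and no expression value was used again to choose cells. The same deposited cluster holds 116 cells of other types, so that 351 cells carry the number 6. Cluster 6 is set against the microglia of the other deposited clusters in the same library and batch, called other microglia here.

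Microglia are the resident macrophages of the brain. In the adult hippocampus they survey synapses and debris through receptors such as P2ry12 and Cx3cr1, take up material through complement and Fc receptors, and digest it in lysosomes. Their steady state depends on Csf1r and transforming growth factor beta signalling and is recognised by P2ry12, Tmem119 and Sall1. A cell's messenger RNA is held partly in the nucleus, where long non-coding RNAs such as Malat1 stay, and partly in the cytoplasm, where the short, abundant messages for ribosomal proteins and for subunits of the respiratory chain are translated. Droplet sequencing counts both kinds of molecule together, as unique molecular identifiers (UMIs).

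The mice (strain label BC57BL/6) went through learned helplessness, in which inescapable foot shocks are followed by a test of escape. Shocked mice received 180 inescapable shocks of 0.3 mA, and the escape test had 30 trials, each of 24 s. In the chronic paradigm they were also retested every week for 3 weeks and were classed as non-recovered, recovered (helpless at first and later no longer) or non-helpless. The acute paradigm gave helpless and non-helpless animals, and non-shocked mice were the control. Hippocampi without meninges and choroid plexus were dissociated, and live CD45-positive cells were sorted and profiled with a 5' droplet kit. Each of the 6 groups has 1 library, and the number, age and sex of the mice in a library were not given in the sources used here. No spread between replicates exists, no p-value is given, and a library cannot be told apart from its group. Intervals in brackets are exact 95% intervals (Clopper-Pearson for shares, Poisson for levels, conditional for ratios) and cover counting error only.

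Cells are divided among 3 deposited batches. The chronic libraries are of batch 3, the acute helpless library is of batch 1 and the acute non-helpless library of batch 2. The non-shocked library has cells of batches 2 and 3, which use different gene symbols and are kept apart below unless said otherwise. Symbols without a single GENCODE M21 entry took 2.11% of UMIs in non-shocked batch 2 cluster 6 cells. They took 1.94% in acute helpless and 2.03% in acute non-helpless microglia, against 0.530% to 0.759% in batch 3 microglia in or outside cluster 6. The acute libraries may thus share this limit, and its part in comparisons with batch 3 was not tested. Totals per library ran from 438777 UMIs in 121 chronic non-recovered cells to 3260120 UMIs in 478 chronic recovered cells. The sources used here do not say whether clusters were numbered over all libraries at once or in each library. Libraries shared 5 cell barcodes, and none of them belongs to the 235 cells.

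The label microglia was checked against 20 microglial markers, among them P2ry12, Tmem119 and Cx3cr1. All 20 were detected in the cluster 6 cells of each library and batch, and the markers took a median of 8.75% of a cluster 6 cell's UMIs, against 15.1% in other microglia. These markers do not single out microglia in these libraries. T cells had a median of 9.33% inside the deposited cluster 6 and of 10.6% outside it, while B cells had 0.0857% and 0.162%. In 3 of the 235 cluster 6 barcodes the share was under 0.5%, as it was in 8 of the 2486 others. One of the 3, of the chronic non-recovered library, had 17107 UMIs, 6790 of them from 7 neutrophil genes such as S100a8 and S100a9, and made up 15.0% of that library's cluster 6 UMIs. A second, of the chronic recovered library, had 10604 UMIs, 26.4% of them from ribosomal protein genes and 62 from Cd24a, and made up 10.4% of its cluster 6 UMIs. The third, also recovered, had 1597 UMIs with 31.2% ribosomal protein and 73 Cd74 UMIs. These 3 odd barcodes go against their label. Without them, a choice made after seeing the data, the cluster 6 UMIs of the non-recovered library number 97018 in place of 114125 and those of the recovered library 90017 in place of 102218. Levels of single genes are given with them unless said otherwise, and calls that change without them are named. A further barcode of the non-shocked batch 3 cells holds 19731 UMIs, or 63.8% of the UMIs of its 9 cluster 6 cells, and has the microglial markers at 13.6%.

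Markers of other cell types were scarce in the remaining 232 cells. Of 12 neuronal markers, all were at 0 in the chronic non-recovered and both non-shocked sets, and 1 UMI was seen in the recovered set. Of the astrocyte list only Slc1a3 was detected, at a summed 129 to 322 CPM, against 211 CPM in other microglia of the non-recovered library and 196 CPM in those of the recovered one. Among the oligodendrocyte markers Mag, Cnp and Mbp were seen, at 66.7 to 155 CPM in all, and among endothelial and mural markers only Pecam1, at 0 to 97.0 CPM. The T cell list summed to 0 to 30.9 CPM, the NK cell list to 0 to 46.4 CPM, the border macrophage list to 11.1 to 162 CPM and the B cell list to 134 to 323 CPM. Neutrophil genes summed to 17.4 to 268 CPM, and erythroid genes to 233 CPM in the recovered set and 0 in the other 3. Non-recovered and recovered cluster 6 cells had 268 and 44.4 CPM of neutrophil genes, against 73.8 and 2.46 CPM in other microglia. Erythroid genes were at 0 in other microglia of both. The T cell list had 30.9 and 0 CPM, against 5.27 and 2.46 CPM, and the NK cell list 41.2 and 0, against 0 and 3.69. The B cell list was lower in cluster 6 of both, at 134 and 222 CPM, against 216 and 306 CPM. Monocyte markers, mainly Lyz2, summed to 58.0 to 196 CPM, except for 1391 CPM in the 9 non-shocked batch 3 cells, where 1 barcode held 41 of 43 UMIs. The part of these RNAs in the results below was not tested.

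Cluster 6 took very different shares of the microglia. In the chronic non-recovered library 58 of 99 microglia were cluster 6, or 58.6% (48.2% to 68.4%). In the chronic recovered library it was 46 of 372, or 12.4% (9.20% to 16.1%). In the chronic non-helpless, acute helpless and acute non-helpless libraries none of 499, 630 and 569 microglia was in cluster 6, which allows shares of up to 0.601%, 0.476% and 0.527% at 3 cells of the total, with exact upper limits of 0.737%, 0.584% and 0.646%. The non-shocked library had 131 of 552, or 23.7% (20.2% to 27.5%), but its batches differed more than any pair of libraries did. In batch 2 it was 122 of 123 microglia (99.2%, 95.6% to 100.0%), and in batch 3 it was 9 of 429 (2.10%, 0.964% to 3.95%).

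**Figure D1:**
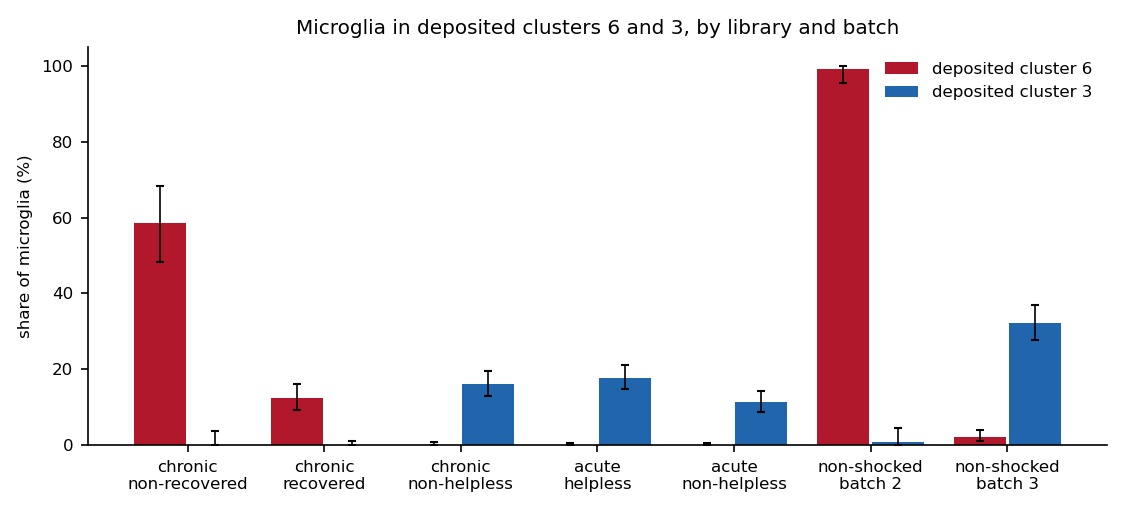
Share of microglia (%) in deposited clusters 6 (red) and 3 (blue) in each library, with the 2 batches of the non-shocked library apart; bars start at 0 and lines are exact 95% binomial intervals. Cluster 6 held 99.2% of non-shocked batch 2 microglia and 58.6% of chronic non-recovered ones, and cluster 3 had cells where cluster 6 had few or none.

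The clusters that other microglia belonged to differed as well. All 41 other microglia of the non-recovered library were of cluster 1 and all 326 of the recovered library were of cluster 2. Cluster 3 held 80 microglia in the chronic non-helpless library, 112 in acute helpless, 64 in acute non-helpless and 138 in non-shocked batch 3, and it had 0 in the non-recovered and recovered libraries. The single non-shocked batch 2 microglial cell outside cluster 6 was of cluster 3. A contrast inside a library, with at least 20 cells on each side, was therefore possible in the non-recovered library (58 against 41 cells) and in the recovered library (46 against 326 cells).

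Cluster 6 cells were shallow and poor in ribosomal protein messages. Over all 235, the median was 1467 UMIs and 913 detected genes, against 4168 UMIs and 1932 genes in other microglia. In the non-recovered library a cluster 6 cell had a median of 1787 UMIs, against 4541 in other microglia, and in the recovered library 2073 against 4766. Non-shocked cluster 6 cells had medians of 904 UMIs in batch 2 and 1185 in batch 3, where other microglia had 3936.

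The 85 ribosomal protein genes took a median of 0.828% of the UMIs of a non-recovered cluster 6 cell, against 4.65% in other microglia of that library. In the recovered library the medians were 1.19% and 5.65%, in non-shocked batch 3 they were 1.03% and 4.44%, and in non-shocked batch 2 the cluster 6 median was 1.58%. Under 2.5% ribosomal protein lay 51 of 58 non-recovered cluster 6 cells (87.9%, 76.7% to 95.01%), against 2 of 41 others (4.88%, 0.596% to 16.5%). In the recovered library it was 32 of 46 cluster 6 cells (69.6%, 54.2% to 82.3%), against 3 of 326 others (0.920%, 0.190% to 2.67%). In non-shocked cells, 80 of 122 batch 2 and 8 of 9 batch 3 members lay under 2.5%. The groups overlapped at both ends, since 64 of the 235 members had 2.5% or more and non-shocked batch 3 had 139 other microglia under it.

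Summed over cells the gap was narrower in the non-recovered and recovered libraries and had the other sign in non-shocked batch 3. Ribosomal protein genes made up 1.44% of the summed UMIs of non-recovered cluster 6 cells, against 4.71% in other microglia, and 5.51% in recovered cluster 6 cells, against 5.97%. Without the 3 barcodes of few microglial markers the cluster 6 values were 0.996% and 2.60%. In non-shocked batch 3 the summed share was 5.26% in cluster 6, against 4.52% in other microglia. That sign rests on the barcode of 19731 UMIs, which held 63.8% of these cluster 6 UMIs and had 7.66% ribosomal protein. Over the 9 cells the median was 1.03% and the upper quartile 1.26%. Malat1, a nuclear long non-coding RNA, ran the other way, with a median of 3.88% of a cell's UMIs in non-recovered cluster 6 cells, against 1.15% in other microglia. In the recovered library the Malat1 medians were 3.15% and 0.915%. In cluster 6 cells of non-shocked batch 2 the Malat1 median was 3.42%.

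**Figure D2:**
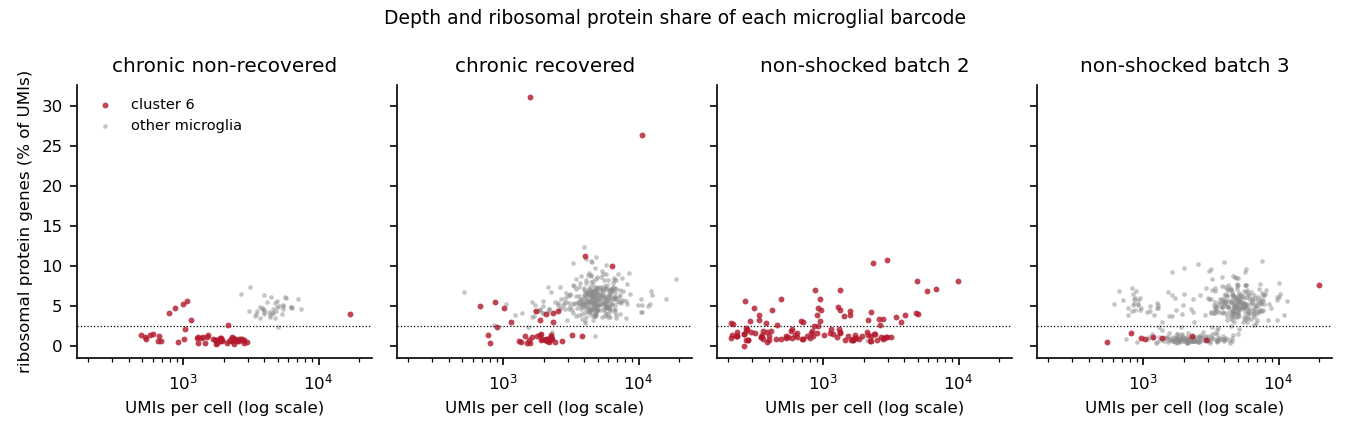
Each microglial barcode of the 4 library and batch sets that hold cluster 6 cells, with UMIs per cell on a log scale (x) and the ribosomal protein share in % of UMIs (y); red is cluster 6, grey is other microglia, and the dotted line is 2.5%. Cluster 6 cells lie low and to the left, with 51 of 58 non-recovered and 32 of 46 recovered members under the line, and the recovered barcodes at 26.4% and 31.2% stand far above.

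Expression was then set side by side within the non-recovered and the recovered library. Levels in CPM are the UMIs of a gene summed over cells and scaled to a fixed total, without correction for gene length. A gene was measured when it had at least 20 CPM and 30 UMIs over both libraries in cluster 6 or in other microglia, and a ratio in both libraries, with a count under 3 on the lower side set to 3. In cluster 6 of both libraries, 299 of 5610 measured genes (5.33%) were higher by 2-fold or more, and 182 (3.24%) were lower by 2-fold or more. By the median of the 2 log2 ratios 3052 of the 5610 lay above 0 and 2558 below. Counts of list members below are to be read beside these shares. Within the non-recovered library alone 14.9% were that much higher and 15.2% lower, and within the recovered library 15.3% and 7.06%. Scaling by median-of-ratios size factors in place of total UMIs moved the median log2 ratio of all genes to -0.24, with 97 genes higher and 438 lower, so the balance of higher and lower genes depends on the scaling. Since clusters are made from expression values, all ratios here describe the cells and test nothing. Without the barcodes of few microglial markers, 5245 genes were measured, 422 of them higher (8.05%) and 322 lower (6.14%). Calls thus became more frequent over all genes, not only in the lists below. Across genes, the log2 ratios of the 2 libraries had a Pearson correlation of 0.475 over 5610 genes, or 0.610 without those barcodes, as a description of genes that share cells and depth.

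The genes Slc8a1, Cacnb2, Nav2 and Dlgap1 had been named as marks of these cells. Slc8a1 encodes a plasma membrane sodium-calcium exchanger, Cacnb2 the beta-2 subunit of voltage-gated calcium channels, Nav2 a neuron navigator that guides cell processes, and Dlgap1 a scaffold protein of the postsynaptic density. In mm10 with GENCODE M21, Slc8a1 lies on chromosome 17 from 81373105 to 81738377 on the minus strand, and Dlgap1 on the same chromosome from 69969073 to 70821413 on the plus strand. Cacnb2 lies on chromosome 2 from 14603088 to 14987908 and Nav2 on chromosome 7 from 48908716 to 49610090, both on the plus strand. All 4 are long genes, with spans of 365, 852, 385 and 701 kb in the order Slc8a1, Dlgap1, Cacnb2 and Nav2.

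Slc8a1, Cacnb2 and Nav2 were higher in cluster 6 in both libraries. Slc8a1 had 47 UMIs and 412 CPM (303 to 548) in non-recovered cluster 6 cells, against 23 UMIs and 121 CPM (76.8 to 182) in other microglia, which is 3.399-fold (2.02 to 5.86). Slc8a1 in recovered cluster 6 cells had 15 UMIs and 147 CPM (82.1 to 242), against 57 UMIs and 35.1 CPM (26.6 to 45.5), 4.18-fold (2.199 to 7.49). The level in other non-recovered microglia was thus close to that of recovered cluster 6 cells. At least 1 UMI of Slc8a1 was seen in 56.9% (43.2% to 69.8%) of non-recovered cluster 6 cells, against 51.2% (35.1% to 67.1%) of the deeper other microglia. In the recovered library the shares were 26.1% (14.3% to 41.1%) and 15.95% (12.1% to 20.4%).

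Cacnb2 had 15 UMIs and 131 CPM (73.6 to 217) in non-recovered cluster 6 cells, against 4 UMIs and 21.1 CPM (5.74 to 54.0) in other microglia. Recovered cluster 6 cells had 13 UMIs and 127 CPM (67.7 to 217), against 34 UMIs and 20.9 CPM (14.5 to 29.2). The ratios were 6.24-fold (1.99 to 25.8) and 6.08-fold (2.94 to 11.8). Nav2 had 91 UMIs and 797 CPM (642 to 979) in non-recovered cluster 6 cells, against 48 UMIs and 253 CPM (186 to 335). Nav2 in recovered cluster 6 cells had 77 UMIs and 753 CPM (594 to 941), against 238 UMIs and 146 CPM (128 to 166). These are 3.15-fold (2.199 to 4.57) and 5.14-fold (3.92 to 6.67).

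In non-shocked batch 2, where almost every microglial cell is in cluster 6, Slc8a1 stood at 133 CPM (84.6 to 200), Cacnb2 at 104 CPM (61.9 to 165) and Nav2 at 482 CPM (384 to 597). The 9 cluster 6 cells of non-shocked batch 3 had 4, 0 and 10 UMIs of the 3 genes, against 281, 86 and 393 UMIs in the other microglia. Slc8a1 there was at 129 CPM (35.2 to 331) in cluster 6 and at 168 CPM (149 to 189) in the others, which hold 138 cluster 3 cells.

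Dlgap1 was not 2-fold apart between cluster 6 and other microglia in either library. It had 20 UMIs and 175 CPM (107 to 271) in non-recovered cluster 6 cells, against 21 UMIs and 111 CPM (68.5 to 169) in other microglia. Recovered cluster 6 cells had 3 UMIs and 29.3 CPM (6.05 to 85.8), against 38 UMIs and 23.4 CPM (16.6 to 32.1). It stood at 296 CPM (220 to 389) in non-shocked batch 2 cluster 6 cells, and at 201 CPM (183 to 220) in acute non-helpless microglia, none of which is in cluster 6. It was at 0 UMIs in every microglial cell of the acute helpless, chronic non-helpless and non-shocked batch 3 sets. The 2 batches of the non-shocked library, which use different gene symbols, thus differ in counted Dlgap1 UMIs. Dlgap1 was counted in the non-recovered and recovered libraries, which are of batch 3. The part of gene symbols in this difference was not tested. Inside the acute non-helpless library Dlgap1 stood at 389 CPM (301 to 495) in cluster 3 and at 159 to 201 CPM in clusters 1, 2 and 5.

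The share of cells with a UMI was set against cells that should lack these genes. Of 217 T, NK and B cells, 77 had under 0.5% microglial markers, with a median of 4718 UMIs. Among those 77, 2.60% had a UMI of Slc8a1, 0 of Dlgap1, 1.30% of Cacnb2 and 3.90% of Nav2. In non-recovered cluster 6 cells, at a median of 1787 UMIs, the shares were 56.9% for Slc8a1, 24.1% for Dlgap1, 22.4% for Cacnb2 and 70.7% for Nav2. Of recovered cluster 6 cells, at a median of 2073 UMIs, 26.1% had a UMI of Slc8a1, 4.35% of Dlgap1, 23.9% of Cacnb2 and 65.2% of Nav2. Over all 217 lymphocytes, most of which carry microglial markers, the shares were 19.8%, 13.8%, 12.4% and 45.6% in the same order, at a median of 10681 UMIs. Each share in cluster 6 lay above that of the 77, although for Dlgap1 in recovered cells it rests on 2 cells. The 77 were picked for few microglial markers, so this gap does not set cluster 6 apart from other microglia. Between cluster 6 and other microglia, the intervals of the Slc8a1 shares given above overlapped in both libraries. The 77 pool all libraries, and Dlgap1 was at 0 in the microglia of acute helpless, chronic non-helpless and non-shocked batch 3 sets. Its 0 among the 77 therefore cannot be told apart from the libraries they came from.

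**Figure D3:**
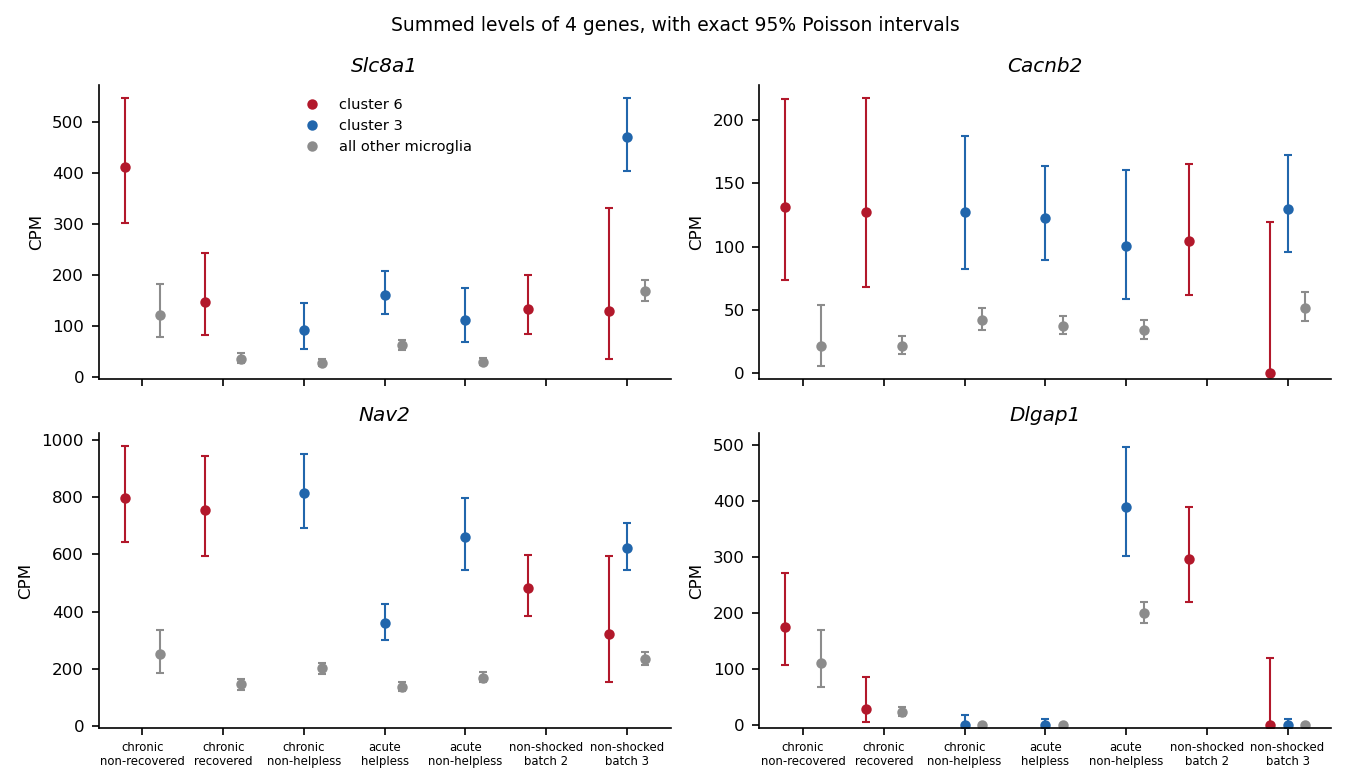
Summed level (CPM, linear axes) of Slc8a1, Cacnb2, Nav2 and Dlgap1 in cluster 6 (red), cluster 3 (blue) and all microglia outside cluster 6 (grey, cluster 3 included) of each library or batch, with exact 95% Poisson intervals. Slc8a1, Cacnb2 and Nav2 are high in clusters 6 and 3 of most sets, while Dlgap1 is at 0 in 3 sets and at 296 CPM in cluster 6 of non-shocked batch 2.

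The 12 highest genes by the median of the 2 log2 ratios began with Cd24a, Vim and Hmgb2, of whose cluster 6 UMIs a single barcode held 92.5%, 68.0% and 46.8%, and Hmgn2, with 78.3%, was also among them. Without the barcodes of few microglial markers Hmgb2 and Hmgn2 had log2 ratios of -0.46 and -1.75, and the other 2 were no longer measured. The remaining 8 of the 12 were Cacnb2, Kif13b, Tmem44, Gtf3c2, Hmbox1, Abcc5, Vps13c and Fosb, and all 8 were also among the 12 highest without those barcodes. Kif13b, a kinesin motor, had 158 and 176 CPM in non-recovered and recovered cluster 6 cells, against 26.3 and 35.1 CPM in other microglia of those libraries. Abcc5, an organic anion transporter that exports cyclic nucleotides, had 438 and 303 CPM, against 105.4 and 74.5 CPM. Vps13c, a lipid transfer protein of late endosomes, had 114 and 166 CPM, against 31.6 and 35.7 CPM. Each of the 3 was at least 3.604-fold higher in cluster 6 of both libraries.

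Of the calcium and ion transport list 11 of 34 genes were measured, 4 were at least 2-fold higher in both libraries and 0 lower, with a median log2 ratio of 1.09, against 0.09 over all measured genes. Itpr2 and Kcnk6 were called too without the odd barcodes, and the median was 1.23. The list median was 0.30 when genes under 50 CPM were left out and 0.33 over the genes measured in the non-recovered library alone. All measured genes had medians of -0.10 and -0.31 in those settings. The list median was -0.028, beside -0.25 over all measured genes, when each cluster 6 cell was set beside the other microglial cell nearest in UMIs. That comparison had only 4 different cells to draw on in the non-recovered library. The 4 called genes were Slc8a1, Cacnb2, Trpm2 (a calcium-permeable channel gated by ADP-ribose) and Atp2a2 (the calcium pump of the endoplasmic reticulum). Trpm2 had 87.6 and 68.5 CPM in non-recovered and recovered cluster 6, against 31.6 and 24.6 CPM in other microglia. Atp2a2 had 123 and 97.8 CPM, against 58.0 and 45.6 CPM, with ratio intervals of 0.893 to 5.15 and 0.989 to 4.18 that include equal levels. Of the list of synaptic scaffolds and adhesion genes 3 of 34 were measured, and Csmd3, a large membrane protein with CUB and sushi domains and a gene of 1211 kb, was the 1 called. It had 815 and 841 CPM in cluster 6, against 242 and 223 CPM.

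Of the axon guidance list 9 of 24 were measured, all above 0, and Nav2, Nav3 and Nrp2 were called, with a list median of 0.65. Nav3, a paralogue of Nav2, had 552 and 636 CPM in cluster 6, against 258 and 204 CPM. Of 29 chromatin regulators of large size, 29 were measured, 28 lay above 0 and 4 were called, Arid2, Ep400, Setd5 and Tet2, with a list median of 0.56. Kmt2d, Arid1b and Nsd1 were called too without the odd barcodes, and the median was 0.78. Tet2, which oxidises 5-methylcytosine, had 149 and 117 CPM in cluster 6, against 42.1 and 33.9 CPM. Of 27 measured microglial transcription factors 21 lay above 0, beside 3052 of all 5610 measured genes. Nfia, Smad7 and Rreb1 were called, with a list median of 0.50. Tcf12 and Cux1 were called too without them, and the median was 0.64. Smad7, an inhibitor of transforming growth factor beta signalling, had 350 and 88.0 CPM, against 148 and 41.9 CPM.

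Malat1 and mitochondrially encoded RNA were higher in cluster 6 of the non-recovered and recovered libraries. Malat1 stood at 33525 CPM (32471 to 34604) in non-recovered cluster 6 cells, against 13076 CPM (12567 to 13601), and at 26170 CPM (25187 to 27181) in recovered ones, against 9380 CPM (9232 to 9530). The ratios were 2.56-fold and 2.79-fold. Kcnq1ot1, Neat1 and Snhg12, the other 3 measured nuclear long non-coding RNAs, had medians of 1.06, 0.61 and 0.05 on the log2 scale and were not called. All 13 mitochondrially encoded genes lay above 0, with a median of 0.96, and mt-Cytb and mt-Atp8 were called, with mt-Nd6 as well without the odd barcodes. mt-Cytb, a subunit of complex III, had 1936 and 2622 CPM in cluster 6, against 938 and 1098 CPM. Their summed share was 1.79% and 2.15% of UMIs in non-recovered and recovered cluster 6 cells, against 0.937% and 1.07% in other microglia. In non-shocked batch 3 the mitochondrial share of a cell had a median of 0.668% in the 9 cluster 6 cells, against 1.19% in other microglia, and the Malat1 share had medians of 2.61% and 1.23%.

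Immediate early genes, which dissociation and activity can induce, did not move as a list. Of 16 measured, 2 were called higher, with a median of 0.24. These were Fosb, with 114 and 166 CPM in cluster 6, against 31.6 and 36.3 CPM, and Atf3, with 158 and 97.8 CPM, against 42.1 and 32.6 CPM. Ier2 was called lower without the odd barcodes. The interferon response list had 6 of 21 measured and a median of 0.99, which was -0.19 when genes under 50 CPM were left out. All measured genes then had a median of -0.10. Stat2, which carries interferon signals to the nucleus, was the 1 called, on 4 and 8 cluster 6 UMIs.

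The remaining lists held few calls, and over all measured genes 5.33% were called higher and 3.24% lower. Of 11 measured glucocorticoid response genes 9 lay below 0, with a median of -0.51, and Ddit4, Mt1 and Cebpd were called lower. Without the odd barcodes Mt1 alone of the 3 was called and the median was -0.33. Ddit4, an inhibitor of the growth kinase complex mTORC1, had 158 and 48.9 CPM in non-recovered and recovered cluster 6, against 348 and 163 CPM in other microglia, and 186 and 55.5 CPM in cluster 6 without the odd barcodes. Of 10 measured cytokine genes Ccl4 was called lower, with 12 and 0 UMIs in cluster 6, against 64 and 203 UMIs. Among purinergic and neurotransmitter receptors, Gabbr1, a subunit of the GABA-B receptor, was called higher, with 175 and 166 CPM, against 63.2 and 63.4 CPM, and P2ry12 lower, and P2rx7 was called higher as well without the odd barcodes. Of 14 measured heat shock genes only Hspe1 was called, lower, and it lost the call without them. MHC class I presentation (14 measured, median 0.22), glycolysis (14, -0.15), cell death (10, -0.15) and MHC class II presentation (2 measured) had 0 calls. Without the odd barcodes Gapdh, Pgk1 and Tpi1 of the glycolysis list were called lower, with a median of -0.44, and Tap1 of the MHC class I list was called higher.

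Genes that define steady-state microglia were mostly lower. Of the 20 homeostatic genes 18 lay below 0, with a median of -0.62 (-0.42 without the odd barcodes), and P2ry12, C1qb, Gpr34 and Cst3 were called lower, of which P2ry12 and Cst3 were called without the odd barcodes. P2ry12, the ADP receptor of surveying microglia, had 2410 CPM (2133 to 2712) in non-recovered cluster 6 cells, against 7492 CPM (7107 to 7892), which is 3.11-fold lower. In recovered cells it had 2720 CPM (2409 to 3059), against 7691 CPM (7557 to 7827), 2.83-fold lower. Cst3, a secreted cysteine protease inhibitor, had 14011 and 22599 CPM in cluster 6, against 46805 and 59610 CPM. Tmem119, a microglial surface protein, had 1805 and 2367 CPM, against 2903 and 3314 CPM. Tmem119 was not 2-fold apart in either library.

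Csf1r, the receptor on which microglial survival depends, and Tgfbr1, a receptor for transforming growth factor beta, were the 2 of the 20 above 0. Csf1r had 8745 and 8648 CPM in cluster 6, against 6775 and 7236 CPM, and Tgfbr1 had 1936 and 1644 CPM, against 1075 and 996 CPM. The level of microglial messages was therefore not lower throughout. Non-shocked batch 2 cluster 6 cells had 4363 CPM of P2ry12 and 2042 CPM of Tmem119.

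The complement, disease-associated and lysosomal lists had medians below 0. Of 12 measured complement and Fc receptor genes 9 lay below 0, and C1qb and Fcer1g were called, with a list median of -0.57 (-0.36 and Fcer1g alone without the odd barcodes). Fcer1g, the gamma chain of Fc receptors, had 561 and 822 CPM in cluster 6, against 1923 and 2390 CPM. Of 12 measured disease-associated microglia genes 10 lay below 0, and Tyrobp and Cd9 were called, with a median of -0.98. Cd63 and Fth1 were called too without the odd barcodes, with a median of -0.77. Tyrobp, the adaptor of Trem2, had 648 and 763 CPM, against 2023 and 2579 CPM. Of 21 measured lysosomal genes 19 lay below 0 and Npc2, a cholesterol carrier, was called, with a median of -0.62. Without the odd barcodes Cd63 was called in place of Npc2, with a median of -0.41. Tmsb4x, which binds actin monomers, had 1866 and 2152 CPM, against 5563 and 6885 CPM.

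The 12 lowest genes were Cd302, Hist1h2ap, Vkorc1, Tmem100, Phgdh, Rgs10, Atox1, Mpc1, Prdx1, Grap, Zeb2os and Atraid. Rgs10, a brake on G protein signalling in microglia, rests on the most UMIs of them and had 272 and 372 CPM in cluster 6, against 1296 and 1490 CPM. It was 4.77-fold lower (3.28 to 7.18) in non-recovered and 4.01-fold lower (2.91 to 5.68) in recovered cells. Atox1, a copper chaperone, had 61.3 and 48.9 CPM, against 237 and 235 CPM. The other 11 had 13 or fewer UMIs in cluster 6 of each library, Mpc1 was not 2-fold lower in the non-recovered library, and Prdx1 was not in the recovered one. Zeb2os lies antisense to Zeb2, and without a stated use of strand its reads and those of Zeb2 cannot be told apart.

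The lists of ribosomal protein, respiratory chain, translation and actin genes gained calls without the odd barcodes. Of 81 measured ribosomal protein genes 79 lay below 0 and 4 were called lower, with a median of -1.68 in the non-recovered library and -0.15 in the recovered one. Without those barcodes 62 of 81 were called lower, beside 6.14% of all measured genes, and the median over both was -1.75. Rplp1, a stalk protein of the large subunit, had 237 CPM in non-recovered cluster 6, against 1407 CPM, and 1037 CPM in recovered cluster 6, against 1877 CPM. Of 26 nuclear genes of oxidative phosphorylation 24 lay below 0 and 3 were called lower, against 12 without the odd barcodes, and the medians were -0.69 and -1.19. Atp5g1, a subunit of ATP synthase, had 35.05 and 39.1 CPM in cluster 6, against 126 and 142 CPM, on 4 UMIs in each. Of 21 translation factors 19 lay below 0, with 0 called lower, or 7 without those barcodes. Actin and thymosin genes had a median of -0.57, with Tmsb4x called lower and Tagln2 higher. Without those barcodes the actin median was -1.40, with 7 called lower and Tagln2 no longer measured. Nuclear and mitochondrial genes of the respiratory chain thus lay on opposite sides of 0. Ribosomal protein genes have many near-identical pseudogenes, and the sources used here do not say how shared reads were counted.

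**Figure D4:**
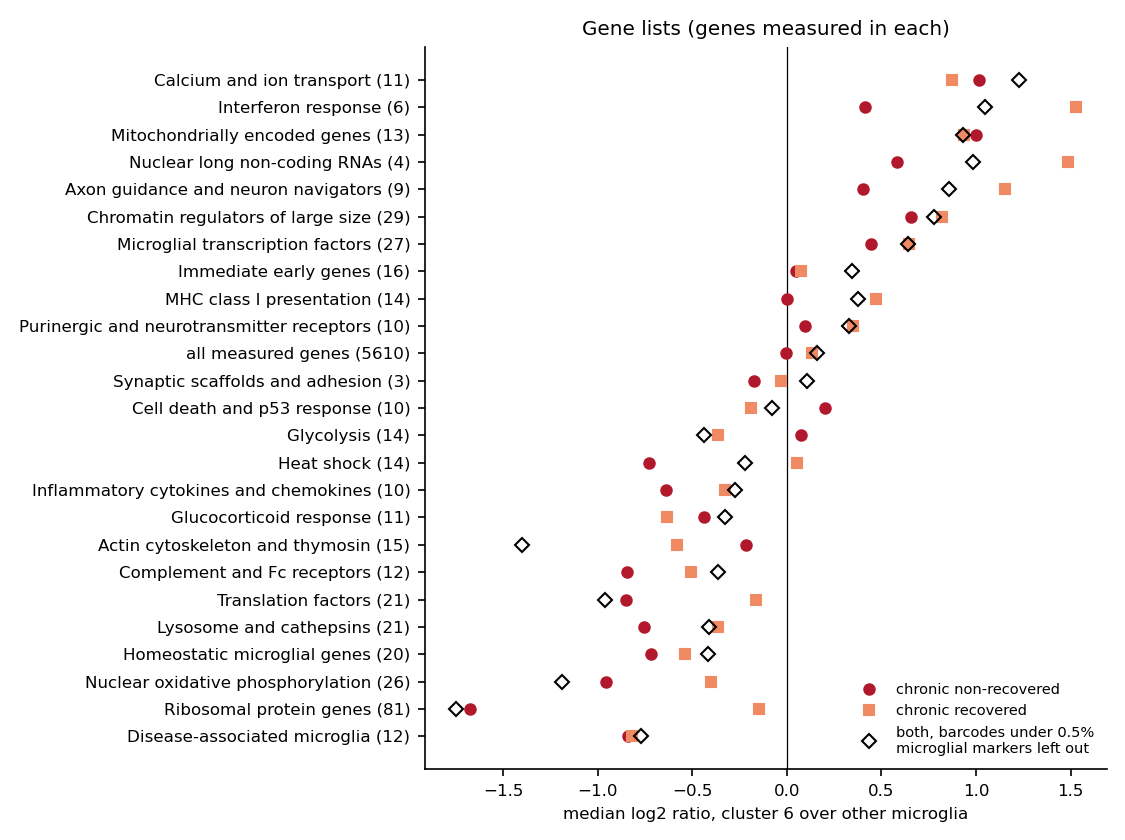
Median log2 ratio of cluster 6 over other microglia for each gene list with at least 3 measured genes (number measured in brackets), in the non-recovered (circles) and recovered (squares) libraries, and over both without barcodes under 0.5% microglial markers (diamonds). Lists of calcium and chromatin genes lie to the right of all measured genes, and ribosomal protein, respiratory chain and phagocytic lists to the left.

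Genes higher and lower in cluster 6 differed in length, a property that the counts do not hold. The span of a gene, from its start to its end in GENCODE M21 with introns, had a median of 61.1 kb among the higher genes, 8.59 kb among the lower genes and 23.4 kb among all measured genes. Spans of at least 100 kb belonged to 102 of 295 higher genes (34.6%), 2 of 179 lower genes (1.12%) and 11.0% of all measured genes with a span. Leaving out ribosomal protein and mitochondrially encoded genes gave medians of 61.6, 8.62 and 24.0 kb. The median log2 ratio over genes went from -0.40 for spans under 5 kb through -0.09 for 10 to 25 kb to 0.43 for 50 to 100 kb and 0.79 for 200 kb or more. In the last bin 42 of 190 genes were called higher and 0 lower, and in the first 9 of 573 were called higher and 45 lower. Malat1 and Fosb, at 6.98 and 7.36 kb, were short genes on the higher side.

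As a share of a cell's UMIs, genes of 100 kb or more took a median of 15.4% in non-recovered cluster 6 cells, against 8.74% in other microglia. In the recovered library the medians were 13.4% and 7.46%, and in non-shocked batch 3 they were 11.0% and 8.50%. Non-shocked batch 2 cluster 6 cells had 11.4%. These counts do not say which UMIs came from introns.

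**Figure D5:**
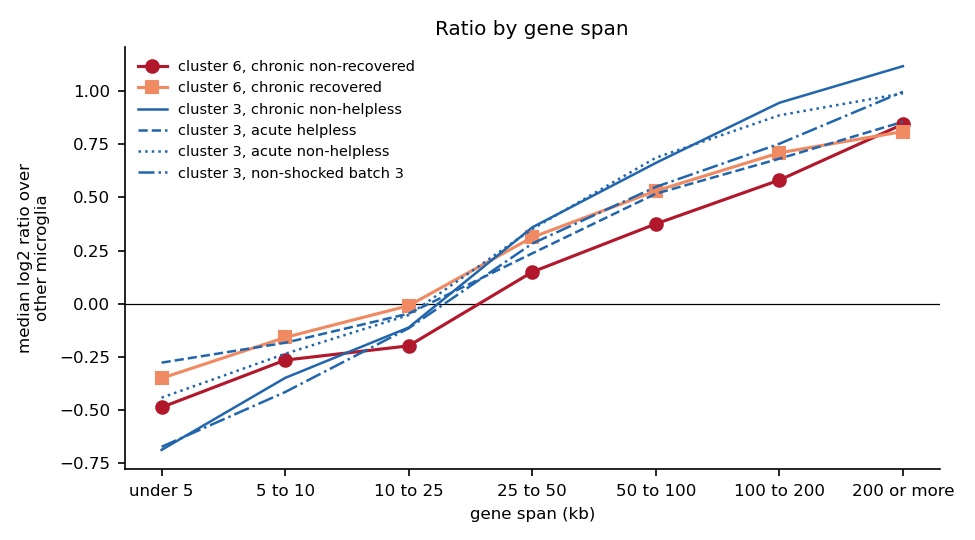
Median log2 ratio over other microglia of the same library (y) for measured genes in 7 bins of gene span in kb (x), for cluster 6 in the 2 libraries that allow the contrast and for cluster 3 in 4 sets. All 6 lines go up with span, for cluster 6 over both libraries from -0.40 under 5 kb to 0.79 at 200 kb or more.

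Cluster 3 of the libraries with few or no cluster 6 cells was also shallow and low in ribosomal protein. Its medians were 1988 UMIs and 0.841% ribosomal protein in the chronic non-helpless library, 1537 UMIs and 0.946% in acute helpless, 1573 UMIs and 1.29% in acute non-helpless, and 2293 UMIs and 0.861% in non-shocked batch 3. Set against the remaining microglia of its own library, cluster 3 lay on the same side of 0 as cluster 6 for 93.1% to 96.0% of the higher genes and for 92.0% to 97.8% of the lower ones. Of all genes with a ratio, 54.1% to 57.1% lay above 0 in cluster 3 and 42.9% to 45.9% below. For mitochondrially encoded genes the medians of the 4 cluster 3 sets were 0.22 to 0.98, a range that holds the 0.96 of cluster 6. For the 6 measured interferon response genes they were 0.19 to 0.41. Cluster 6 had 0.41 for that list in the non-recovered library and 1.53 in the recovered one. At least 2-fold higher were 66.8% of the higher genes in chronic non-helpless, 50% in acute helpless, 61.5% in acute non-helpless and 60.9% in non-shocked batch 3, where 17.8%, 10.8%, 17.5% and 13% of all genes with a ratio passed that fold. At least 2-fold lower were 54.4%, 3.41%, 23.9% and 55.5% of the lower genes in the same order, where 13.1%, 2.15%, 6.5% and 14.7% of all genes did. The 2 clusters share no library with at least 20 cells of each, so a difference between them cannot be told apart from a difference between libraries.

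Cacnb2, Nav2 and Slc8a1 were also detected in cluster 3 of each of the 4 sets, and Dlgap1 in 1 of them, acute non-helpless, with 0 UMIs in the other 3. Cacnb2 stood at 127, 122, 100 and 130 CPM in cluster 3 of the chronic non-helpless, acute helpless, acute non-helpless and non-shocked batch 3 sets, beside 131 and 127 CPM in cluster 6 of the non-recovered and recovered libraries. Nav2 stood at 813, 359, 661 and 624 CPM, beside 797 and 753 CPM. Slc8a1 stood at 91.5, 160, 112 and 472 CPM, beside 412 and 147 CPM. Levels between libraries have no spread to be read against. Genes whose cluster 6 ratios lay at least 2-fold outside all 4 cluster 3 ratios, a rule set after values were seen, were Ccdc22 and Tarbp2 above and Zdhhc9 and Fam98c below, each with 10 or fewer cluster 6 UMIs in either library.

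Within cluster 6 the cells were not alike. The members were divided at 2.5% ribosomal protein, a value also chosen with the data in view, after leaving out the 3 odd barcodes. In non-shocked batch 2, 80 cells lay under it and 42 at or above it, and genes of 100 kb or more made up 13.5% of UMIs in the low cells, against 8.73% in the others. The 4 marker genes together had 1246 CPM (1021 to 1505) in the low cells, against 787 CPM (611 to 997). In the non-recovered library the same values were 15.9% and 1901 CPM (1626 to 2208) in 51 low cells, against 9.31% and 284 CPM (34.4 to 1026) in 6 others. In the recovered library they were 13.9% and 1495 CPM (1208 to 1830) in 32 low cells, against 9.71% and 516 CPM (282 to 865) in 12 others. Malat1 made up 4.63%, 4.02% and 3.19% of UMIs in the low cells of the 3 sets, against 2.28%, 1.79% and 2.33% in the others. The low cells were not always the shallower ones, with medians of 738 against 1308 UMIs in non-shocked batch 2, 1848 against 1043 in the non-recovered library and 2075 against 1980 in the recovered library.

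Between groups, cluster 6 cells could be compared at the level of single libraries of batch 3. Non-recovered over recovered cells, 688 genes reached 50 CPM on 30 or more UMIs in 1 of the 2 libraries. Of these, 55 (7.99%) were higher by 2-fold or more and 103 (15%) lower. The highest were S100a9, S100a8, Ngp and Camp, of whose UMIs over 99% were in the 1 neutrophil-rich barcode. Without the odd barcodes 560 genes were left, 38 of them higher (6.79%) and 53 lower (9.46%). Highest was Egr1, an immediate early transcription factor, with 40 UMIs and 412 CPM in non-recovered cells, against 6 UMIs and 66.7 CPM in recovered ones (6.19-fold, 2.61 to 17.9). Dock8, an exchange factor for Cdc42, had 907 CPM, against 178 CPM (5.10-fold, 2.97 to 9.32). Lamp1, a lysosomal membrane protein, had 639 CPM, against 156 CPM. Other microglia of the 2 libraries differed in the same direction, with 353 against 114 CPM of Egr1, 374 against 87.1 CPM of Dock8 and 1106 against 201 CPM of Lamp1. Whether the difference is larger in cluster 6 was not tested.

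Lower in non-recovered cluster 6 cells were Fcgr1, the high-affinity Fc receptor, with 268 CPM against 822 CPM (3.07-fold lower, 1.94 to 5.00), Ctsc, a lysosomal protease, with 268 CPM against 733 CPM, and B2m, the light chain of MHC class I, with 186 CPM against 489 CPM. In other microglia the levels were 432 and 502 CPM of Fcgr1, 622 and 599.9 CPM of Ctsc and 648 and 902 CPM of B2m in the non-recovered and recovered libraries. Ttr, made by the choroid plexus, had 3 and 43 UMIs. Of 34 measured ribosomal protein genes 31 were at least 2-fold lower in the non-recovered cells, with a median log2 ratio of -1.50. The summed ribosomal protein share of the 2 sets, without those barcodes, was 0.996% and 2.60%.

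Non-recovered cells over the 9 non-shocked batch 3 cells, 444 genes passed the same minimum, 149 of them higher (33.6%) and 53 lower (11.9%). With both non-shocked batches on the other side the balance turned, to 95 genes higher and 208 lower of 1112. Those batches use different gene symbols, so that count cannot be told apart from differences of batch and gene symbol. Against the 9 batch 3 cells, without the neutrophil-rich barcode, it was 419 genes with 37.7% higher and 12.2% lower. Without, in addition, the non-shocked barcode of 19731 UMIs it was 327 genes with 52 higher (15.9%) and 14 lower (4.28%). Cd74, H2-Aa, H2-Ab1 and H2-Eb1, the MHC class II genes that were lowest at first, had all of their non-shocked UMIs in that barcode. In the last comparison, of 57 against 8 cells, the lowest was Cst3 (4.20-fold lower, 3.85 to 4.58), with Ctsl, Ly6e, Gpr34, C1qb and Ctss after it, and the highest was Pag1, an adaptor of Src family kinases. The non-shocked side then holds 11188 UMIs, and its 8 cells are too few for a profile of the group.

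The other cell types under the deposited number 6 had another profile. The 66 T cells of cluster 6 had a median of 13905 UMIs and 14.8% ribosomal protein, against 13297 UMIs and 15.2% in the 95 T cells of other clusters. The 23 NK cells had 9713 UMIs and 14.4%, against 6214 UMIs and 16.9% in 16 others, and the 14 monocytes had 10954 UMIs and 13.3%, against 5539 UMIs and 10.1% in 28 others. Malat1 took a median of 0.738% of UMIs in the cluster 6 T cells, against 0.700% in the others. These medians pool libraries. Within the non-recovered library the 14 T cells and 3 NK cells of cluster 6 had medians of 5354.5 and 3329 UMIs, with 16.3% and 18.0% ribosomal protein, and its 1 monocyte had 8312 UMIs and 2.73%. The 1 NK cell of cluster 6 in non-shocked batch 2 had 1255 UMIs and 1.59% ribosomal protein.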

How the data were processed

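The authors deposited raw count matrices (UMI counts per gene and cell) and cell metadata with counts of UMIs and genes, the batch, cluster and cell type, per the file headers. The submitters' processing notes name Cell Ranger 2.2.0, Seurat 2.3.4 and genome build mm10. The sources used here do not say how cells were filtered, clustered and typed. Deposited normalized matrices were not used. UMI sums equalled the deposited totals in all 3005 cells. UMIs were summed per library and batch and scaled to CPM with Python 3.11.15, numpy 2.4.6, pandas 2.3.3 and scipy 1.17.1. Doublets were kept: Scrublet (scanpy 1.11.5) called 56 of 3005 cells and 5 of the 235. Gene spans came from GENCODE M21 for 30675 of 32429 symbols. The step from sums to ratios was tested on simulated data with known changes.

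Members and lists were chosen with earlier results of these data known. Named genes were the 12 highest and 12 lowest median log2 ratios, the 4 given markers, list members at least 2-fold apart in both libraries and the 8 highest and lowest of each comparison inside cluster 6, from which a selection is printed. Some genes and a gene list are not reported here. Ribosomal protein, mitochondrial, haemoglobin, immunoglobulin and unnamed genes did not enter the ranking. Other genes are named after their values were seen. The rule that a measured gene needs a ratio in both libraries was added after seeing the values. Alternatives changed the scaling, the minimum level, the cells kept and the libraries.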

Additional observations from a re-analysis of the deposited data

Results flagged for a closer look

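A barcode labelled microglia in cluster 6 of the chronic non-recovered library held 6790 UMIs of 7 neutrophil genes, which lie outside the microglial measurement. The other 57 cluster 6 barcodes of that library held 26 such UMIs, and its 41 other microglia held 14. With 1 library in each group, no library was compared with others of its group.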

How the results depend on the processing

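No paired analysis was possible because each group has 1 library and no test was made. Slc8a1, Cacnb2 and Nav2 stayed higher in cluster 6 with cells of at least 1000 UMIs, without called doublets, without barcodes of few microglial markers, with each cell weighted equally and within each library alone. The non-recovered and recovered shares moved by less than their intervals under the filters on cells. The cause of the changes below was not tested, and values are median log2 ratios unless said otherwise. The planned comparison with other microglia under 2.5% ribosomal protein was not run, since 2 and 3 such cells exist. Depth limits most genes, as 30 UMIs in all sufficed to be measured.

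The non-shocked share was 2.10% in batch 3 only, 99.2% in batch 2 only and 13.3% among cells of at least 1000 UMIs. That last filter gave -0.95 for disease-associated, 0.29 for immediate early genes and 2.53 for Cacnb2.

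With median-of-ratios size factors 97 of 5946 measured genes were higher (1.63%) and 438 lower (7.37%). Medians were -0.95 for homeostatic genes, 0.77 for calcium, 0.18 for transcription factors, 0.24 for chromatin, -0.89 for actin, -0.95 for lysosome, -0.90 for complement, -0.10 for MHC class I, -1.31 for disease-associated, -0.69 for cytokine, -0.088 for immediate early, -0.83 for glucocorticoid, -0.21 for purinergic, -0.47 for glycolysis and 0.63 for mitochondrially encoded genes. Non-recovered against non-shocked cells gave 266 genes higher and 32 lower, and 95 and 208 when both non-shocked batches, with their different gene symbols, entered.

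Thinned to 500 UMIs a cell, 43 genes were higher (4.88%) and 79 lower (8.97%), of 881 measured. The median over all of them was -0.30. Homeostatic genes were at -0.45, transcription factors at 0.21, translation at -1.18, disease-associated at -1.02, cytokine at -0.74, glucocorticoid at -0.66 and mitochondrially encoded genes at 1.03.

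Against other microglia matched by UMIs (4 different non-recovered and 26 recovered cells), 194 of 2041 measured genes were higher (9.51%), beside 5.33% in the main contrast. The median over all measured genes was then -0.25. The calcium list changed sign, at -0.028, and lay above that median. Axon guidance was at 1.29, chromatin at 0.39, actin at 0.11, complement at -0.15, disease-associated at -0.24, immediate early at 0.18, heat shock at 0.011, purinergic at 0.58, glycolysis at 1.64, cell death at 0.66 and mitochondrially encoded genes at 0.69. With a minimum of 50 CPM 136 of 3529 measured genes were higher (3.85%), and the median over all of them was -0.10. The interferon list reversed, at -0.19, and calcium was at 0.30 and immediate early genes at 0.027.

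With each cell weighted equally 295 of 5504 measured genes were lower (5.36%). Values were then 0.19 for synaptic, 0.70 for chromatin, -1.18 for oxidative phosphorylation, -1.23 for actin and -0.76 for disease-associated genes. They were 0.29 for immediate early, -0.27 for glucocorticoid, 0.34 for purinergic and -0.49 for glycolysis genes, 2.16 for Slc8a1 and 2.77 for Cacnb2. Without barcodes under 0.5% microglial markers 322 of 5245 measured genes were lower (6.14%). Values were then -0.42 for homeostatic, 1.23 for calcium, 0.10 for synaptic, 0.78 for chromatin and -1.19 for oxidative phosphorylation genes. They were -1.40 for actin, -0.77 for disease-associated, 0.35 for immediate early, -0.33 for glucocorticoid and 0.33 for purinergic genes, and 2.83 for Cacnb2.

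Without called doublets calcium was at 0.95, immediate early at 0.17, mitochondrially encoded genes at 0.91 and Cacnb2 at 2.68. The mean in place of the median gave 0.92 for calcium, 0.45 for synaptic, 0.73 for chromatin, -0.68 for disease-associated and 0.19 for immediate early genes.

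With the non-recovered library left out, 865 of 5796 genes measured in the recovered one were higher (14.9%) and 399 lower (6.88%). With the recovered library left out, 113 of 1169 genes measured in the non-recovered one were higher (9.67%) and 298 lower (25.5%). The medians over all measured genes were 0.12 and -0.31. The lists ran from 0.33 to 0.87 for calcium, 0.19 to 0.64 for transcription factors, 0.52 to 0.82 for chromatin, -1.07 to -0.16 for translation, -0.58 to -0.28 for actin, -0.85 to -0.51 for complement, -0.15 to 0.47 for MHC class I, -0.84 to -0.66 for disease-associated, -1.36 to -0.33 for cytokine, -0.030 to 0.073 for immediate early, -0.79 to 0.056 for heat shock, -0.76 to -0.63 for glucocorticoid, 0.10 to 0.35 for purinergic and -0.37 to 0.27 for glycolysis genes. Nuclear long non-coding RNAs were at 1.48 without the non-recovered library.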
